A study of Mus musculus with 6 samples.

Results

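The genes described here are targets and regulators of the sterol regulatory element binding proteins (SREBPs), which run cholesterol and fatty acid synthesis, in whole mouse ileum. They were chosen by gene symbol from a list of 34, in 3 sets: 20 of the sterol arm, 9 of the fatty acid arm and 5 regulators. Of these, 33 had a probe set that carries exactly 1 gene symbol, out of 19938 genes with such a probe set; Acat2 had none and was not analysed here. Where a gene had more than 1 probe set, the brightest by mean over the 6 arrays was used. None of the 33 had a mean signal below 3.40, the median of all values in the table, and no filter on low values was applied.

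RNA from the whole ileal wall of 6 mice was measured on Affymetrix mouse Gene 1.0 ST arrays, 1 array per mouse. The GATA6 KO group held 3 mice that carried Villin-CreERT2 and GATA6 flox/flox, and the control group held 3 mice with Villin-CreERT2 alone. Mice of both groups received tamoxifen (100 mg/ml) on 5 consecutive days at 6 to 8 weeks of age, and ileum was taken 28 days later from animals on chow diet. Villin-CreERT2 is a Cre recombinase that tamoxifen activates and that the Villin promoter expresses in gut epithelium, so Gata6, a zinc finger transcription factor, was targeted in epithelial cells while muscle, connective tissue, fat and immune cells of the wall were not.

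SREBPs are made as membrane proteins of the endoplasmic reticulum. When sterols are scarce, the escort protein SCAP carries them to the Golgi, where proteases free a fragment that enters the nucleus and switches on its target genes; when sterols are plentiful, INSIG proteins hold SCAP back. The product of Srebf2 acts mostly on cholesterol synthesis, that of Srebf1 mostly on fatty acid synthesis, and Insig1 is itself a target of both. The small intestine is among the main sites of cholesterol synthesis outside the liver.

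Values are log2 signals as the authors deposited them, so a difference of 1 is a doubling. The targeted gene did not go down with its label: Gata6 read 6.93, 6.81 and 6.86 on the arrays labelled Gata6 KO, against 6.31, 6.33 and 6.50 on the control arrays (log2 fold change 0.49, SE 0.08, limma adjusted p = 0.0162). The sources used here do not say which exons the probe set reads or which are floxed, and signal from exons that were kept would be no check of the deletion; arrays are therefore called KO-labelled throughout. Of 10 markers shared by all gut epithelium Krt19 rose and Vil1 fell, and their mean was 9.60 to 9.71 on the KO-labelled arrays and 9.56 to 9.70 on the control arrays. Markers of single epithelial cell types moved more, as given below beside the results. Control replicate 3 had a low signal for Xist (2.31, against 7.39 to 7.81 on the KO-labelled arrays and 7.57 and 7.65 on the other controls) and a signal for the Y-linked Eif2s3y (5.30, against at most 0.61 on any other array), the signals of a male beside 5 females. Sex was thus not balanced, and results without that array are given below.

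Promoters are shown because members of the sterol arm moved together. The windows run from 250 bases before to 50 bases after an annotated start (RefSeq, GRCm38.p6), and 27 of the 33 members have at least 1. Searched on both strands were TCACNCCAC (a form of the sterol regulatory element, the SREBP site), CCAAT (bound by NF-Y, a partner of SREBPs), GGGCGG (Sp1), CACGTG (E-box) and the GATA letters AGATAA and TGATAA. Capitals below mark TCACNCCAC and CCAAT, or their reverse complements. Hmgcs1 is shown as the one member whose window holds TCACNCCAC; Cyp51, Msmo1, Insig1 and Acss2 were picked after their values were seen, as strongly changed members of each set.

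Windows in order are Hmgcs1 (chr13:119690101-119690400, plus strand), Cyp51 (chr5:4104648-4104947, minus strand), Msmo1 (chr8:64733529-64733828, minus strand), Insig1 (chr5:28071162-28071461, plus strand) and Acss2 (chr2:155517793-155518092, plus strand).
Hmgcs1: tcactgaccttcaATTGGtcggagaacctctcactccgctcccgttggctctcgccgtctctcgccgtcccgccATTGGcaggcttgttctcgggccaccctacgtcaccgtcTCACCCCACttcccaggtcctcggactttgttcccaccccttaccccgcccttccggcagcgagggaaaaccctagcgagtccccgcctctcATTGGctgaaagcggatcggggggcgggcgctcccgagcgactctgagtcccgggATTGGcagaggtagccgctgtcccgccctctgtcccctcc
Cyp51: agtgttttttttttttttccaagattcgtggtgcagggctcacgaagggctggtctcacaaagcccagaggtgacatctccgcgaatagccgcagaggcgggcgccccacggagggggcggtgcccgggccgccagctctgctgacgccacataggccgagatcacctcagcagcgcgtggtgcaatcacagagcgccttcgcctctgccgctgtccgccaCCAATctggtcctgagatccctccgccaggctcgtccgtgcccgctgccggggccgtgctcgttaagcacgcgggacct
Msmo1: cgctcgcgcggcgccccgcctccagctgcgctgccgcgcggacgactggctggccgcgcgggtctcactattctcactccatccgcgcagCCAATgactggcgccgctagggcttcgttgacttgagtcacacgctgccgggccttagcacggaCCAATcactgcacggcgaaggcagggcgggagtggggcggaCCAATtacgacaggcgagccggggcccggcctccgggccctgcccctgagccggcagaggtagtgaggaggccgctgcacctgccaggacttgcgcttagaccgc
Insig1: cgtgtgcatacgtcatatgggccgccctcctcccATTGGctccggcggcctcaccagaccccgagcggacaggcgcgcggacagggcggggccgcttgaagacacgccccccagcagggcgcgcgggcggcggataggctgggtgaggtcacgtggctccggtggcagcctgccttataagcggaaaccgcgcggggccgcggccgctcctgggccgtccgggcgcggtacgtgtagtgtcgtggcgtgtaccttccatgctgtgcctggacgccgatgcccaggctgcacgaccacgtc
Acss2: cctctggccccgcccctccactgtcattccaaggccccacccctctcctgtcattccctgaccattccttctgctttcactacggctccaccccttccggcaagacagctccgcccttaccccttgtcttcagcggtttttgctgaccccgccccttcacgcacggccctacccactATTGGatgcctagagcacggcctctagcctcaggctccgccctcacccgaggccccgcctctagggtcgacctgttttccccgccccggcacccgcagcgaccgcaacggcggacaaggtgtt

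In the Hmgcs1 window the sterol regulatory element letters read TCACCCCAC and begin at -137 from the start, counted with the start as 1, and CCAAT or its complement begins at -237, -176, -45 and 11. Msmo1 has CCAAT at -160, -96 and -55, Cyp51 has it at -29, Insig1 has its complement at -216 and Acss2 at -73. CCAAT on either strand lay in the windows of all 15 sterol arm genes that have one, in 4 of 7 fatty acid genes and in 4 of 5 regulators, against 41.1% of all 27025 genes with windows. GGGCGG lay in 13 of 15, 3 of 7 and 5 of 5, against 38.2%. TCACNCCAC lay in 1 of 15, 0 of 7 and 0 of 5, against 1.44%, and CACGTG in 3, 0 and 2, against 8.09%. The GATA letters lay in none of the 15 sterol and 7 fatty acid genes and in 1 regulator, Insig2, against 21.0% of all genes. These matches describe letters in a short window and not binding. Genes with more than 1 window count once, and each motif was counted on its own, whether or not it overlapped another. The windows of Acaca and Lpin1, which hold no CCAAT, lie inside the gene and not at its outermost start. The CCAAT matches of Fasn, Me1, Dhcr7 and Srebf1 also lie only in windows inside the gene. For Me1 and Dhcr7 the window at the outermost start holds none.

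Part of the sterol arm was lower and part of the fatty acid arm higher in the KO-labelled ileum. In the sterol arm 7 of 19 measured genes fell and none rose (36.8%, against 3.25% of all 19938 genes called lower), and 18 of the 19 had a log2 fold change below 0. In the fatty acid arm 3 of 9 genes rose and none fell (33.3%, against 4.99% of all genes called higher), and 7 of the 9 had a fold change above 0. The median log2 fold change was -0.48 in the sterol arm and 0.58 in the fatty acid arm, against 0.00 over all genes. A call means an adjusted p under 0.05 in a limma fit over all genes with 3 arrays per group, and 8.24% of all genes passed in either direction. Without adjustment, 12 sterol genes were lower and 1 higher at p under 0.05, and 5 fatty acid genes higher and none lower. At that threshold 2051 of all 19938 genes were lower and 2877 higher. The genes were listed with earlier results of these data known, so these counts are a description and not independent support. In RNA of a whole tissue, fewer cells of a type and less RNA per cell cannot be told apart.

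**Figure D1:**
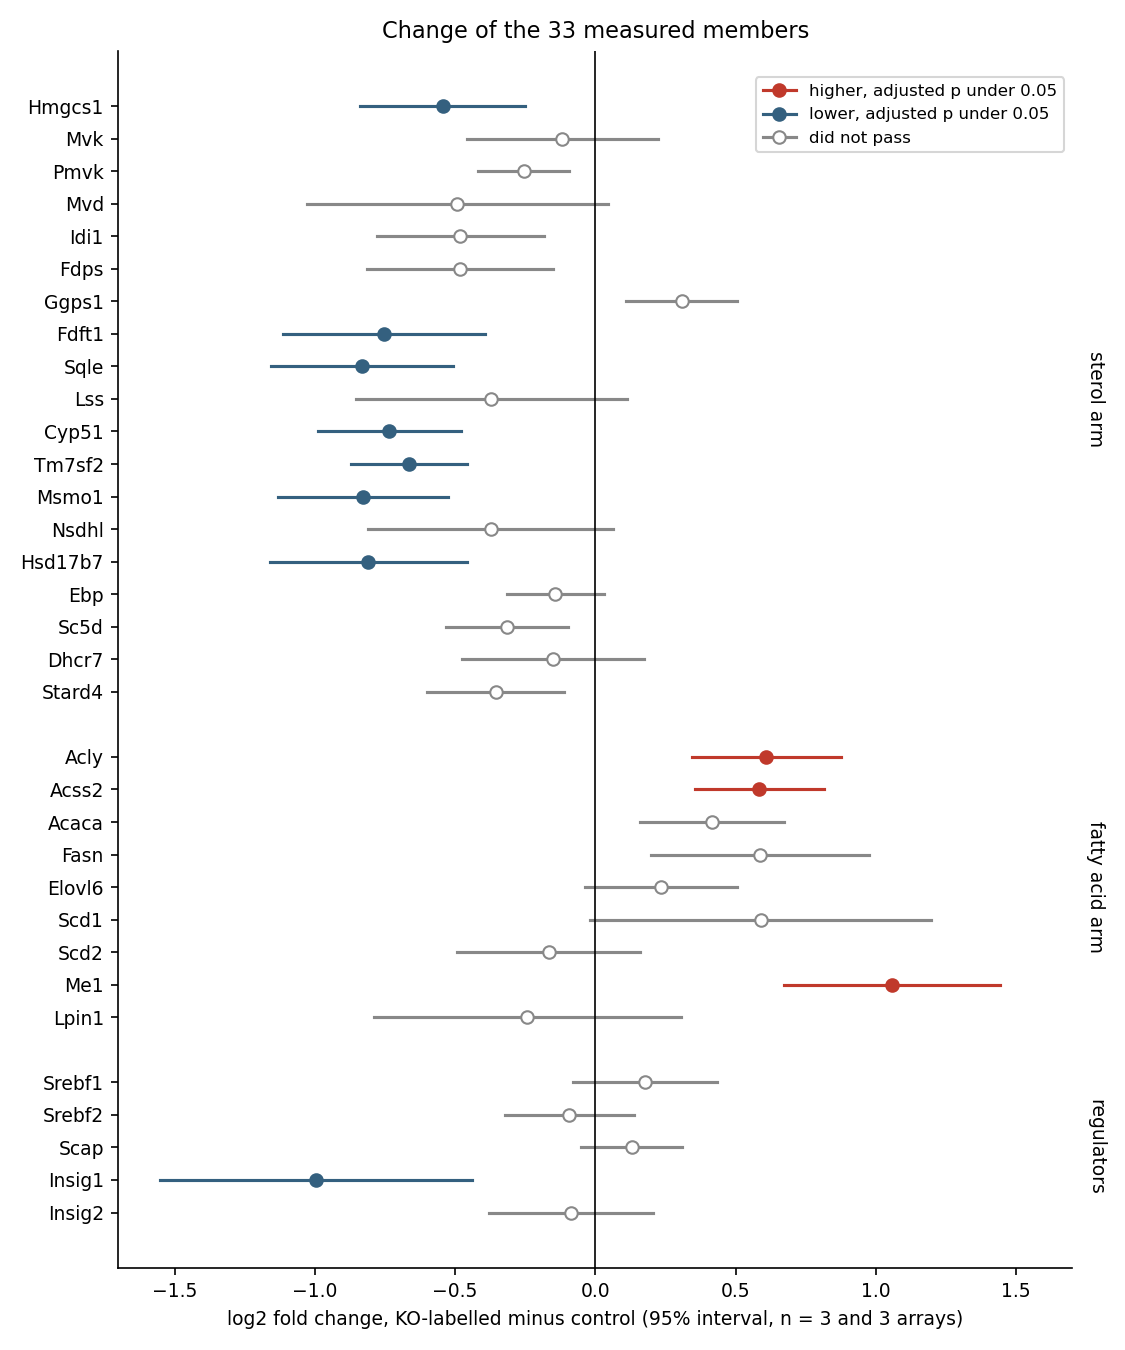
Log2 fold change of each of the 33 measured genes, KO-labelled minus control, with its 95% interval from the limma fit (3 arrays per group), in pathway order within each set. The 7 genes called lower in the sterol arm lie between -0.83 and -0.54, and the 3 called higher in the fatty acid arm between 0.58 and 1.06.

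The first steps of the sterol path join acetyl units into mevalonate and then into isoprenoids. Hmgcs1, which makes HMG-CoA, read 8.65, 8.51 and 8.85 on the KO-labelled arrays, against 9.41, 9.07 and 9.15 on the control arrays. The groups did not overlap, and it fell 1.46-fold (log2 fold change -0.54, SE 0.12, adjusted p = 0.0420). The call was lost when any 1 of the 6 arrays was left out (0.0542 to 0.148). The 5 measured enzymes that follow, up to farnesyl diphosphate, did not pass: the kinases Mvk and Pmvk, the decarboxylase Mvd, the isomerase Idi1 and the synthase Fdps had log2 fold changes of -0.12, -0.26, -0.49, -0.48 and -0.48. The KO-labelled arrays still lay below every control array for Pmvk, Idi1 and Fdps, as they did for 13 of the 19 sterol genes, against 12.6% of all genes. For Mvk and Mvd the groups overlapped through control replicate 2, which read 5.26 for Mvk and 6.05 for Mvd.

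Ggps1 makes geranylgeranyl diphosphate, on a side branch that leads to protein prenylation and not to sterols. It was the one gene of the arm with a fold change above 0: 6.27, 6.41 and 6.32 on the KO-labelled arrays, against 6.03, 6.12 and 5.92 on the control arrays (0.31, SE 0.08, adjusted p = 0.0723). The groups did not overlap, in the direction opposite to the rest of the arm.

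At the committed steps to sterols 2 of 3 genes fell. Fdft1, the squalene synthase, read 6.89, 6.90 and 7.09 on the KO-labelled arrays, against 8.05, 7.47 and 7.62 on the control arrays, and fell 1.69-fold (-0.75, SE 0.15, adjusted p = 0.0287). Squalene epoxidase, Sqle, a rate-limiting enzyme of the path, read 7.32, 7.15 and 7.32 on the KO-labelled arrays, against 8.34, 7.81 and 8.14 on the control arrays. It fell 1.78-fold (-0.83, SE 0.14, adjusted p = 0.0143). In both genes the KO-labelled arrays lay within a narrow band while control replicate 1 was the highest array. Lss, which closes squalene epoxide into lanosterol, did not pass (-0.37, SE 0.21, adjusted p = 0.318): control replicate 1 read 6.54, and the other controls, at 5.70 and 5.84, lay near the KO-labelled arrays at 5.63, 5.62 and 5.73.

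Of the enzymes that turn lanosterol into cholesterol, 4 fell: the demethylase Cyp51, the sterol reductase Tm7sf2, the methyl oxidase Msmo1 and the keto reductase Hsd17b7. Cyp51 read 6.55, 6.36 and 6.57 on the KO-labelled arrays, against 7.41, 7.09 and 7.17 on the control arrays (-0.73, SE 0.11, adjusted p = 0.00949). Tm7sf2 read 6.51, 6.49 and 6.66 on the KO-labelled arrays, against 7.14, 7.19 and 7.32 on the control arrays (-0.66, SE 0.09, adjusted p = 0.00607). Cyp51 and Tm7sf2 were the 2 members that stayed called whichever array was left out, and Tm7sf2 was the one of the 7 in which control replicate 1 was not the highest control. Msmo1 read 9.23, 9.04 and 9.48 on the KO-labelled arrays, against 10.21, 9.94 and 10.09 on the control arrays, a 1.78-fold decrease (adjusted p = 0.0114). Hsd17b7 read 6.61, 6.55 and 6.87 on the KO-labelled arrays, against 7.78, 7.27 and 7.41 on the control arrays, a 1.75-fold decrease (adjusted p = 0.0211). No array of either group overlapped the other in these 4 genes.

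The remaining genes of the arm did not pass. Nsdhl, which works with Msmo1 and Hsd17b7 in removing methyl groups, had -0.37, the isomerase Ebp -0.14, the desaturase Sc5d -0.31 and Dhcr7, which makes cholesterol in the last step of one branch, -0.15. Their 95% intervals were -0.81 to 0.06, -0.31 to 0.03, -0.53 to -0.10 and -0.48 to 0.17. Stard4, which carries cholesterol between membranes, had -0.36 (adjusted p = 0.0869), with 7.53, 7.56 and 7.67 on the KO-labelled arrays, against 8.14, 7.82 and 7.87 on the control arrays.

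**Figure D2:**
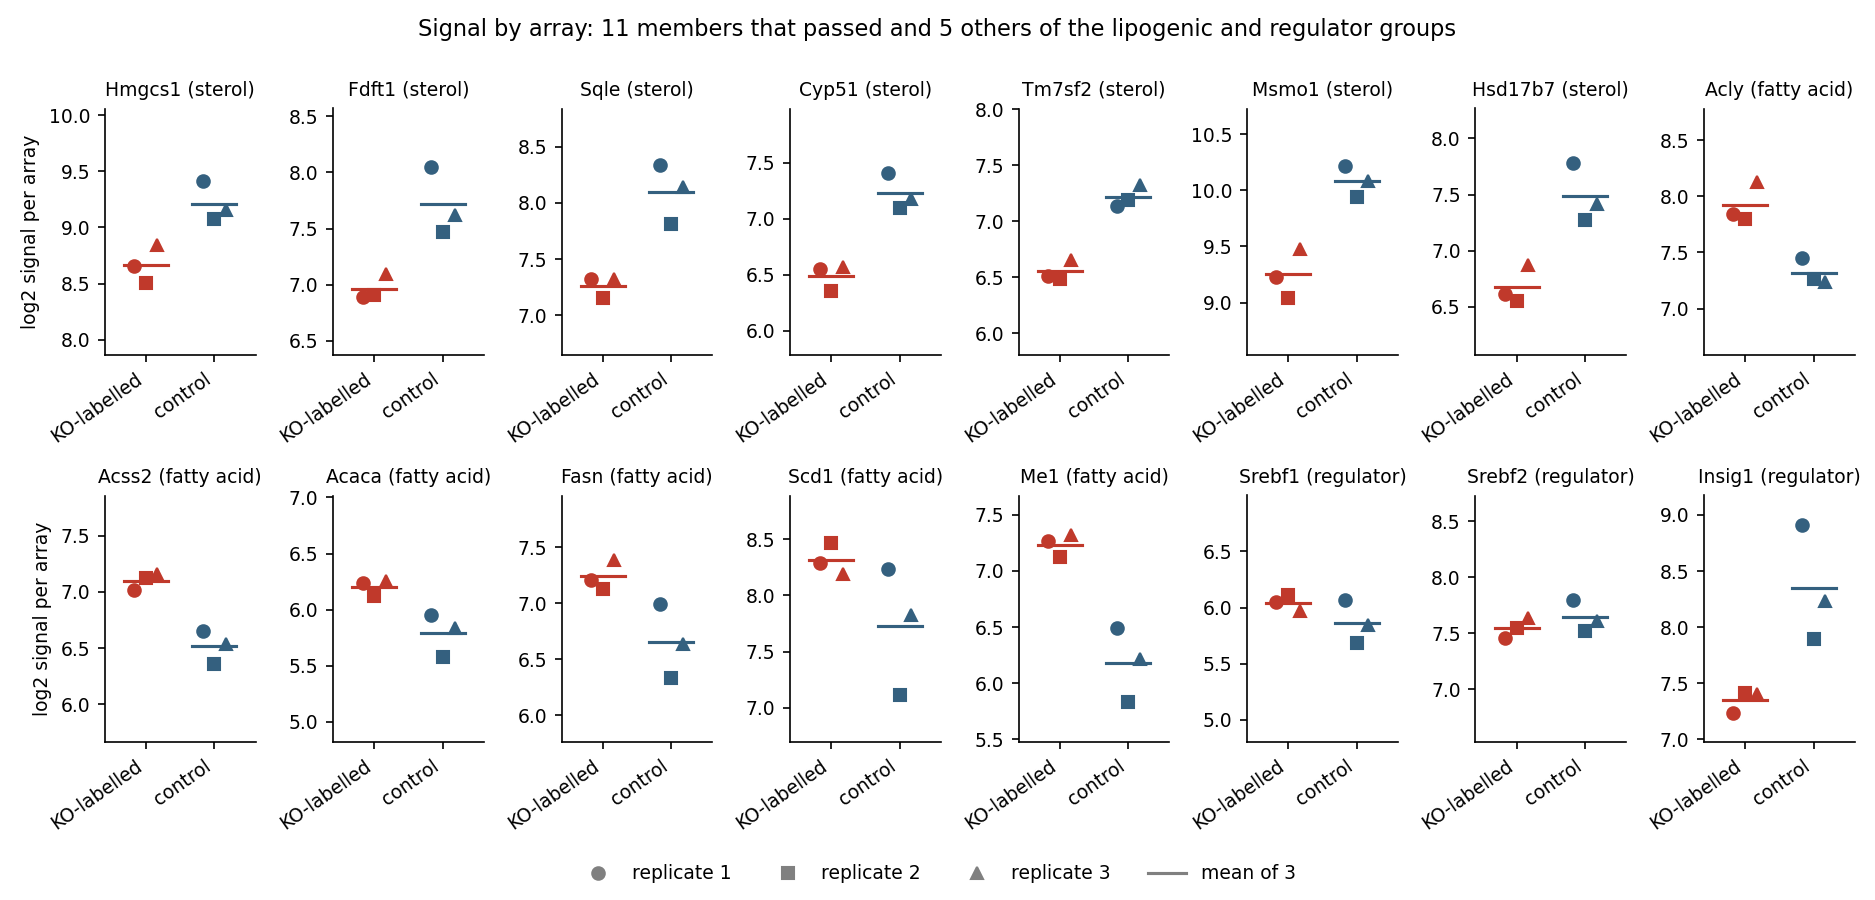
Log2 signal on each array (points, 1 shape per replicate number) and group mean (line) for the 11 genes that passed and for Acaca, Fasn, Scd1, Srebf1 and Srebf2, with KO-labelled arrays left and control arrays right in each panel; every panel spans the same range of log2 units. Sterol genes and Insig1 sit lower on the KO-labelled arrays, at 7.32 at most against at least 7.81 for Sqle, while Acly, Acss2 and Me1 sit higher, with Me1 at 7.12 to 7.32 against 5.83 to 6.50.

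The fatty acid arm moved the other way. The enzymes that supply cytosolic acetyl-CoA rose: Acly, which splits citrate, read 7.84, 7.80 and 8.13 on the KO-labelled arrays, against 7.45, 7.26 and 7.24 on the control arrays (0.61, SE 0.11, adjusted p = 0.0214). Acss2, which activates acetate, read 7.01, 7.12 and 7.16 on the KO-labelled arrays, against 6.66, 6.36 and 6.53 on the control arrays (0.58, SE 0.10, adjusted p = 0.0151). The malic enzyme Me1, a source of NADPH for lipid synthesis, rose 2.08-fold, with 7.27, 7.12 and 7.32 on the KO-labelled arrays, against 6.50, 5.83 and 6.21 on the control arrays (1.06, SE 0.16, adjusted p = 0.0114). None of these 3 genes showed an overlap of the groups. Acly kept the call only when control replicate 1 was left out (0.0356); the other 5 fits gave 0.0555 to 0.0867. Acss2 and Me1 lost it without control replicate 3 (0.0599 and 0.0524) or KO-labelled replicate 3 (0.0650 and 0.0525), Acss2 also without KO-labelled replicate 2 (0.0713) and Me1 without KO-labelled replicate 1 (0.0537).

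The enzymes that build and modify the chain did not pass with all 6 arrays. Acaca, acetyl-CoA carboxylase, read 6.24, 6.12 and 6.25 on the KO-labelled arrays, against 5.95, 5.58 and 5.83 on the control arrays (0.42, adjusted p = 0.0640). Fasn, fatty acid synthase, read 7.21, 7.13 and 7.38 on the KO-labelled arrays, against 6.99, 6.33 and 6.63 on the control arrays (0.59, SE 0.17, adjusted p = 0.0787). In both, as in the elongase Elovl6 (0.23, adjusted p = 0.260), every KO-labelled array lay above every control array, as in 6 of the 9 genes and in 16.8% of all genes. Acaca and Fasn passed when each array was centred on its median (0.0302 and 0.0377), and Fasn also without control replicate 1 (0.0308).

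The desaturases did not move alike. Scd1 read 8.29, 8.46 and 8.19 on the KO-labelled arrays, against 8.23, 7.12 and 7.83 on the control arrays, so control replicate 1 lay within the KO-labelled range (0.59, 95% interval -0.02 to 1.20). Scd2 had -0.17, with an interval of -0.49 to 0.16, and the difference between the changes of Scd1 and Scd2 was not tested. Lpin1, a phosphatidate phosphatase that also acts as a coregulator in the nucleus, had -0.24 (interval -0.79 to 0.30); its control replicate 1, at 5.33, stood above all other arrays, which read 4.39 to 4.59.

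Among the regulators Insig1 fell 1.99-fold. It read 7.23, 7.41 and 7.41 on the KO-labelled arrays, against 8.91, 7.89 and 8.23 on the control arrays, with no overlap (-0.99, SE 0.24, adjusted p = 0.0477). The call is close to the threshold and was lost without control replicate 3 (0.126) or any 1 of the KO-labelled arrays (0.121 to 0.147). The other 4 did not pass, the transcripts of both factors among them. Srebf2 read 7.46, 7.55 and 7.63 on the KO-labelled arrays, against 7.80, 7.52 and 7.61 on the control arrays, with a change of -0.09 and an interval of -0.32 to 0.14. Srebf1 read 6.05, 6.11 and 5.96 on the KO-labelled arrays, against 6.06, 5.69 and 5.84 on the control arrays (0.18, interval -0.08 to 0.43). Its probe set does not separate the transcript forms of Srebf1 here. Scap had 0.13 (interval -0.05 to 0.31), with 6.03, 6.06 and 6.15 on the KO-labelled arrays, against 5.90, 6.02 and 5.93 on the control arrays. Insig2, the second INSIG, had -0.09 (interval -0.38 to 0.20), with 7.39, 7.27 and 7.38 on the KO-labelled arrays, against 7.21, 7.42 and 7.68 on the control arrays. The difference between the changes of Insig1 and Insig2 was not tested.

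The arms were contrasted array by array through the mean log2 signal of their members. For the 19 sterol genes the mean was 6.81, 6.76 and 6.90 on the KO-labelled arrays, against 7.46, 7.07 and 7.27 on the control arrays. For the 9 fatty acid genes it was 7.16, 7.19 and 7.21 on the KO-labelled arrays, against 7.08, 6.54 and 6.73 on the control arrays. The groups did not overlap in either arm, and in both the controls spread more (SD 0.19 and 0.27) than the KO-labelled arrays (SD 0.08 and 0.02). The sterol mean minus the fatty acid mean, centred on the 6 arrays because levels of different probe sets cannot be set against each other, was -0.42 ± 0.06 on the KO-labelled arrays and 0.42 ± 0.09 on the control arrays (SD, n = 3 each). The change of the sterol arm relative to the fatty acid arm was thus -0.85, and it lay between -0.90 and -0.80 in the 14 alternatives that moved it; the other 5 leave this difference as it is by construction. No test is given for these means, since the members were chosen with results known.

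**Figure D3:**
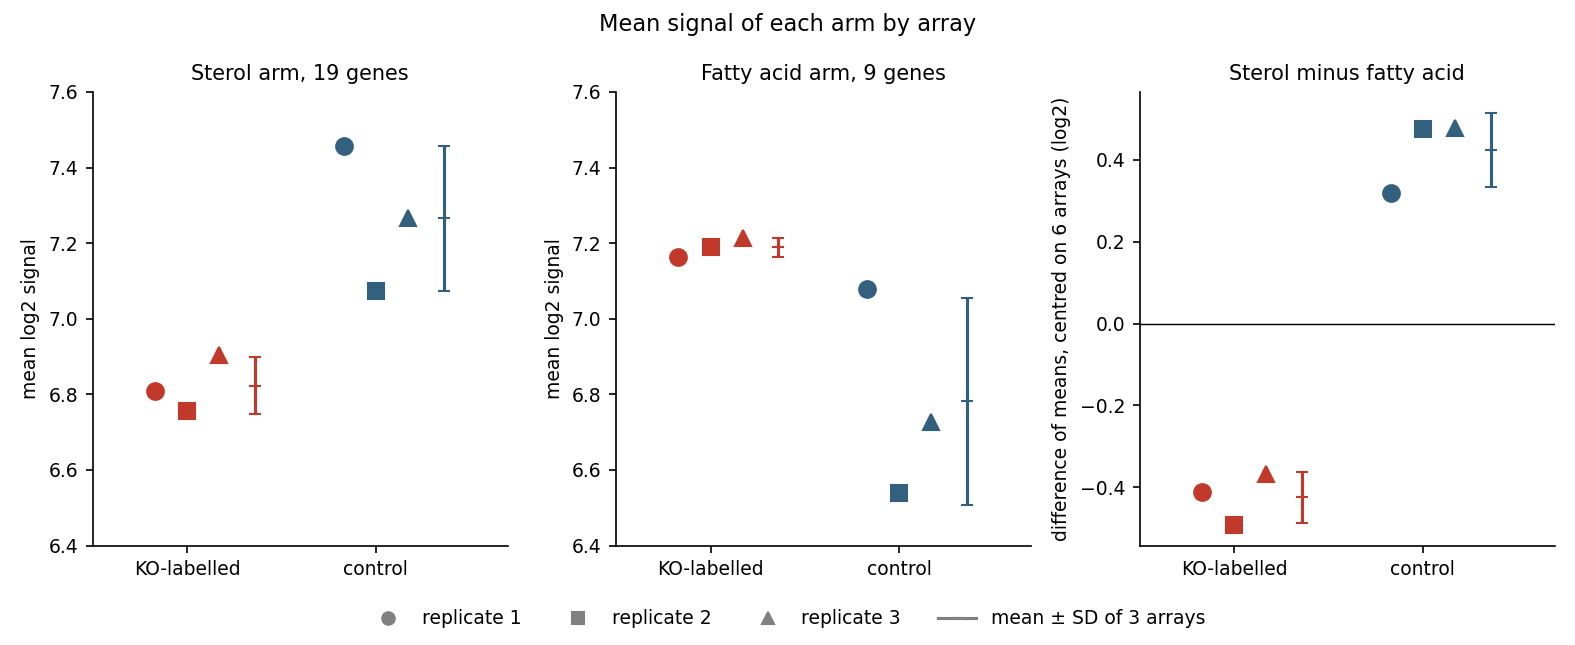
Mean log2 signal of the 19 sterol genes (left) and the 9 fatty acid genes (middle) on each array, and their difference centred on the 6 arrays (right), with the mean ± SD of 3 arrays beside each group. The sterol mean is 6.76 to 6.90 on the KO-labelled arrays and 7.07 to 7.46 on the control arrays, and the fatty acid mean is 7.16 to 7.21 on the KO-labelled arrays and 6.54 to 7.08 on the control arrays.

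Within the control group the arms varied in the same direction, unlike between the groups. Control replicate 1 was the highest control in 15 of 19 sterol and 9 of 9 fatty acid genes, and in 37.7% of all genes. Control replicate 2 was the lowest control in 16 of 19 and 7 of 9, and in 41.8% of all genes. Left out of the fit, control replicate 1 left 6 sterol and 4 fatty acid genes called, and control replicate 2 left 9 and 2; without control replicate 3, the array with male signals, 2 sterol genes (Cyp51 and Tm7sf2) and no fatty acid gene passed. Without KO-labelled replicate 1, 2 or 3, 2, 3 and 4 sterol genes passed, and 1, 1 and 0 fatty acid genes. Over all genes the calls also fell in each of these fits, from 995 higher and 648 lower with all 6 arrays. They were 393 and 286 without control replicate 3, and 567 and 306 without KO-labelled replicate 1. No called gene turned direction in any of these fits; over the 6 of them the log2 fold change was -0.63 to -0.44 for Hmgcs1 and 0.88 to 1.21 for Me1, and without control replicate 3 it was -0.58 and 1.07.

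Markers of other cells of the wall also varied between the arrays. Fat cells express the fatty acid arm strongly, and of 8 adipocyte markers none rose and 1, the lipase Lipe, fell; their mean was 5.05, 5.20 and 4.98 on the KO-labelled arrays, against 5.17, 4.23 and 4.87 on the control arrays. Adipoq, made by fat cells, read 5.43, 5.78 and 5.71 on the KO-labelled arrays, against 5.58, 3.75 and 5.12 on the control arrays. Control replicate 2 was thus the lowest array in the adipocyte mean as in the fatty acid mean. With the adipocyte mean as a covariate Acss2 and Me1 stayed called, Acly had an adjusted p of 0.0620, and 9 sterol genes were called lower. Over all genes that fit called 764 higher and 550 lower. At an unadjusted p under 0.05 it had 6 fatty acid genes higher and 2 lower, and 17 sterol genes lower and 1 higher. Of all genes 2775 were higher and 2380 lower at that threshold. The smooth muscle mean was 8.18, 8.56 and 8.51 on the KO-labelled arrays, against 7.97, 8.18 and 8.02 on the control arrays, and 1 of its 8 genes, Tagln, rose. With that mean as a covariate no member passed, and over all genes that fit called 46 higher and 50 lower. In it the change of the sterol arm relative to the fatty acid arm was -0.87. At an unadjusted p under 0.05, 5 sterol genes were lower and 5 fatty acid genes higher. At that same threshold 1049 of all 19938 genes were lower and 1346 higher.

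Markers of epithelial cell types also differed between the groups. Of 7 enterocyte genes 5 fell and none rose, with a list median of -1.23 on the log2 scale; the sucrase Sis had -3.61 and the glucose transporter Slc5a1 -1.08. The mean of the 7 was 5.88, 6.09 and 6.45 on the KO-labelled arrays, against 7.47, 8.03 and 8.15 on the control arrays, with no overlap. Among the controls, replicate 1 was the lowest for this mean, while it was the highest for the sterol mean. All 4 Paneth cell genes fell (median -1.92), among them the protease Mmp7 (-2.65) and the defensin Defa24 (-1.82). Of 4 enteroendocrine genes 2 fell, the hormone Pyy by 1.56 on the log2 scale, while 1 of 3 goblet and 1 of 3 tuft cell genes rose. None of 6 fibroblast genes passed (median 0.42). Only the adipocyte, smooth muscle and shared epithelial means were used as covariates. The smooth muscle mean largely followed the group (8.18 to 8.56 against 7.97 to 8.18), so that fit could not tell muscle from group. The part of any of these cells, fat and muscle included, in the results was not otherwise tested.

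**Figure D4:**
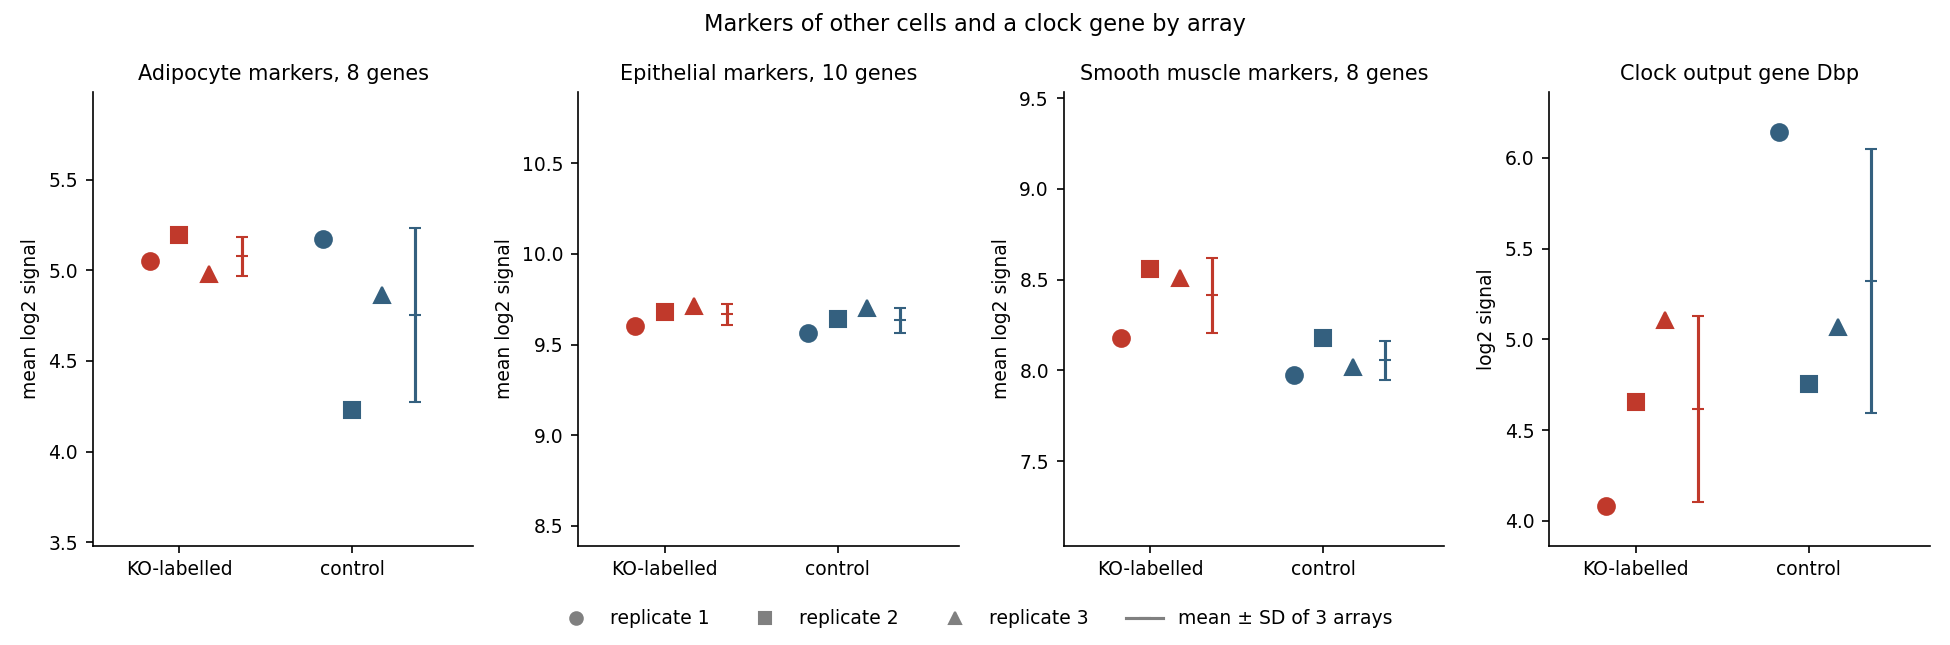
Mean log2 signal of 8 adipocyte, 10 epithelial and 8 smooth muscle markers and log2 signal of the clock output gene Dbp on each array, with the mean ± SD of 3 arrays beside each group and the same span of log2 units in each panel. Control replicate 2 is low for adipocyte markers at 4.23, control replicate 1 is high for Dbp at 6.14, and the epithelial means of both groups lie between 9.56 and 9.71.

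Sterol synthesis follows the time of day and feeding, and the labels state free access to food but not the time of day at harvest. Of 15 clock genes 1, Usp2, fell (-0.77, SE 0.08, adjusted p = 0.00282) and none rose, with a list median of -0.20. Dbp and Nr1d1 did not pass; like Adipoq above, they were picked with their values known. Dbp, a clock output gene, read 4.08, 4.65 and 5.11 on the KO-labelled arrays, against 6.14, 4.75 and 5.07 on the control arrays, and Nr1d1, a clock repressor, 6.03, 6.59 and 7.28 on the KO-labelled arrays, against 8.01, 6.61 and 6.71 on the control arrays. Control replicate 1 was thus the highest array for both, as for Insig1, and KO-labelled replicate 1 the lowest. Of 8 genes that respond to fasting 3 rose, the carnitine carrier Slc25a20 (0.78, adjusted p = 0.00216), the oxidation enzyme Acadm and the lipid droplet protein Plin2, and none fell. What these have to do with the sterol genes was not tested.

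Other genes of the same pathways were counted from 3 further lists. Of 9 measured genes of sterol handling 1 rose and none fell, with a median log2 fold change of 0.12: Stard5, a sterol carrier protein, read 7.13, 7.87 and 7.45 on the KO-labelled arrays, against 6.34, 6.03 and 5.75 on the control arrays (1.44, SE 0.21, adjusted p = 0.00932). Its groups did not overlap. Next in order of p were the thiolase Acat1 (0.29, adjusted p = 0.0501) and the lysosomal cholesterol exporter Npc1 (0.41, adjusted p = 0.0528), followed by the sterol reductase Lbr (-0.26, adjusted p = 0.115) and Tmem97, a known SREBP target (-0.44, adjusted p = 0.149). None of these 4 passed, and they were named after their values were seen; 7 of the 9 genes had a fold change above 0, and Lbr and Tmem97 were the 2 below it.

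Of 23 further genes of fatty acid synthesis and its control 1 rose and 4 fell, with a median of 0.00, so they did not share the direction of the 9 members. Acacb, the carboxylase whose product restrains fatty acid oxidation, rose 2.14-fold, with 4.99, 5.11 and 5.07 on the KO-labelled arrays, against 4.03, 3.92 and 3.94 on the control arrays (adjusted p = 6.79e-04). Mlxipl, which encodes the glucose-sensing factor ChREBP, an activator of lipogenic genes, fell (-0.72, SE 0.07, adjusted p = 0.00216), as did Nr1h3, which encodes the oxysterol receptor LXR alpha, an activator of Srebf1 (-0.89, SE 0.15, adjusted p = 0.0146). Nr1h3 read 5.17, 4.71 and 5.19 on the KO-labelled arrays, against 5.77, 6.05 and 5.91 on the control arrays. The elongase of very long chains Elovl1 (-0.51, adjusted p = 0.0143) and the polyunsaturated fatty acid desaturase Fads2 (-0.64, adjusted p = 0.0239) also fell, and Fads2 was named after its value was seen. Of 11 further genes of SREBP processing and control 2 rose, the AMP kinase catalytic subunits Prkaa1 (0.61, adjusted p = 0.0176) and Prkaa2 (0.64, adjusted p = 0.0206, named after its value was seen), and none fell.

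Second probe sets gave the same directions. The dimmer probe set differed between the KO-labelled and control means by -0.64 for Fdft1, -0.48 for Idi1, 1.12 for Me1 and 0.57 for Acaca, against -0.75, -0.48, 1.06 and 0.42 for the probe sets used. Whether probe sets of the same gene share probes was not tested.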

How the data were processed

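Values are on a log2 scale as deposited by the authors, 1 per probe set and array. The submitters' processing notes name Expression Console as the software, with no version; its background, normalization and summary methods: not given in the sources used here. Base 2 is an inference from how far the values range. The table holds 35557 probe sets without a missing value; 21789 carry 1 gene symbol, 1621 several and 12147 are not named here. The brightest probe set per gene left 19938 genes, with identifiers matched to RefSeq (GRCm38.p6) for 21698 of the 21789 probe sets and no symbol changed.

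The values were fitted as deposited with limma 3.58.1 (lmFit, eBayes) in R 4.3.3, KO-labelled minus control, two-sided, with Benjamini-Hochberg adjustment over all genes and a threshold of 0.05; intervals are 95% and SEs moderated. The fit was tested on simulated arrays. The number of arrays limits the precision. The labels give 3 individual mice per group. Named genes are all members, with values per array for those that passed and 10 set ones, up to 6 further pathway genes and up to 2 passing genes per marker list by smallest p; genes named beyond this rule are marked in the text or complete a count of 5 or fewer. Members and lists were chosen with earlier results of these data known. No set was tested. Replicate numbers are shared by the groups, but no label says that a number marks a litter or day, so the main fit used no block. A block by number was fitted as an alternative. Same-numbered arrays did not deviate together (correlations 0.04, -0.04 and 0.15). Alternatives covered scaling, dim genes, probe sets, moderation, array weights, covariates and each array left out. Figures were drawn with matplotlib 3.10.9.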

Additional observations from a re-analysis of the deposited data

How the results depend on the processing

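The change of the sterol arm relative to the fatty acid arm, -0.85, lay between -0.90 and -0.80 in the 14 of 19 alternatives that moved it; centring, the dim gene filter, both changes to moderation and the block leave it as it is by construction. Counts of genes past the threshold moved. With limma's variance moderation left out, no member passed, with 168 of all genes called higher and 106 lower. At an unadjusted p under 0.05 that fit had 13 sterol genes lower and 1 higher, and 5 fatty acid genes higher. Over all genes it had 1661 lower and 2386 higher at that threshold. With the smooth muscle mean as a covariate the counts of calls were 0 for the sterol arm, the fatty acid arm and the regulators, with 46 of all genes called higher and 50 lower. Centring each array on its median called 1562 genes higher and 565 lower, against 995 and 648, with 5 fatty acid genes higher and 1 sterol gene, Ggps1, higher. Leaving out dim genes, with fewer genes tested, gave 10 sterol genes lower, against 7 in the main fit, and 5 fatty acid genes and 1 sterol gene higher. Over all genes kept, that fit called 1328 higher and 689 lower. The fit by eBayes with trend and robust gave 10 sterol genes lower and 5 fatty acid genes higher, with 1282 of all genes higher and 742 lower. Array weights called 1 sterol gene higher, with 1207 of all genes higher and 745 lower. With the replicate number as a block 7 sterol and 3 fatty acid genes passed but 0 regulators. In that fit Hmgcs1 was lost (limma adjusted p = 0.0521) and Idi1 gained (0.0455). The epithelial mean as a covariate gave 5 sterol genes lower, 3 fatty acid genes higher and 0 regulators, with 879 of all genes higher and 573 lower. Over all genes the block called 766 higher and 475 lower, and 2 of 6 arrays correlated best with their own number. Leaving out 1 array gave 2 to 9 sterol genes lower, 0 to 4 fatty acid genes higher, 0 to 1 regulators, and 320 to 806 genes higher and 277 to 597 lower over all. Signs turned only where no call was made: Lpin1 ranged from -0.42 to 0.0498 and Insig2 from -0.20 to 0.0335 over the fits without 1 array, turning without control replicate 1 and control replicate 3, and the smooth muscle covariate gave 0.0355 for Lpin1 and 0.21 for Mvk. Causes of these shifts were not tested. Log2 fold changes under about 0.5 were often not called with 3 arrays per group.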
